A study of Mus musculus with 6 samples.

Results

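The cells described here are those whose deposited name ends in Tuft, a class assigned by the submitters. They number 108 of the 5122 deposited cells: 27 and 19 in the 2 DMSO libraries, 17 and 20 in the 2 libraries with 13 h of tunicamycin, and 13 and 12 in the 2 libraries with 25 h. The cells were differentiated monolayers grown from mouse intestinal organoids of Rosa26-floxed STOP-Cas9 mice crossed to cmv-cre, given as B6, so all 3 groups carry the Cas9 allele and the Cre transgene. Tunicamycin (Tm), an inhibitor of N-linked glycosylation that causes stress of the endoplasmic reticulum (ER), was given at 0.5 µg/ml from differentiation day 3, or for the shorter time after 12 h in DMSO, and all sets were harvested on day 4. The growth protocol speaks of colonic spheroids but the tissue tag of small intestine, which is left unsettled here. Every cell of the class passed the filters on depth and mitochondrial UMIs (unique molecular identifiers, each a counted RNA molecule), as did 4368 of 4462 enterocytes and 550 of 552 goblet cells.

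Tuft cells are rare chemosensory cells of the epithelium. They signal through the taste pathway that ends in the channel Trpm5, depend on the transcription factor Pou2f3, make eicosanoids and, in the mouse small intestine, secrete the cytokine Il25. Enteroendocrine cells are the hormone-secreting cells of the same epithelium, and Sct (secretin) and Chga (chromogranin A) are among their products. The series title asks which transcriptional programmes decide the outcome of ER stress, and the class is described here first by its make-up and then by its response to Tm.

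The class took a like share of each library. It made up 2.29% and 1.63% of kept cells in DMSO, 2.18% and 2.44% after 13 h of Tm, and 2.42% and 2.202% after 25 h. The 95% exact binomial (Clopper-Pearson) intervals, which cover counting error only, overlapped in all libraries, the narrowest being 0.985% to 2.54% in DMSO replicate 2. The median class cell held 24336 and 10648 UMIs in DMSO, 28780 and 19791 after 13 h, and 13316 and 17666 after 25 h, against 14757 to 17862 for the enterocytes of the 6 libraries. The log2 ratio of the class median to the enterocyte median averaged 0.16 ± 0.51 (SD, n = 6 libraries), was positive in 3 of 6 libraries and did not differ from 0 beyond the spread (exact sign-flip permutation test, two-sided, p = 0.5; the smallest p possible is 0.03125). In the series, 12 barcode sequences occur in more than 1 library, and 3 of them are carried by cells of the class. Scrublet called 31 doublets in the series (0.605%) and 0 in the class.

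The 5 marker genes were present in the class, 4 of the 5 in 16 to 20 of its cells. Lrmp, an ER membrane protein of tuft cells, had a UMI in 20 of the 108 cells, Trpm5 in 19 and Dclk1, a kinase used to mark tuft cells, in 17. Chga had a UMI in 16 and Sct in 56 cells. Dclk1 stood at 7.37 and 15.7 CPM (UMIs per 1000000 UMIs summed over the class in a library) in DMSO, at 40.5 and 98.1 after 13 h, and at 64.9 and 2.78 after 25 h. Trpm5 stood at 3.69 and 3.14 CPM in DMSO, 14.6 and 76.9 after 13 h, and 32.4 and 19.4 after 25 h, so that all 4 Tm libraries were above both DMSO libraries. Sct stood at 1482 and 3761 CPM in DMSO, 113 and 308 after 13 h, and 337 and 1106 after 25 h, with every Tm library below both DMSO libraries. In summed cells, a change in how many cells express a gene and a change in the RNA per cell cannot be told apart, so the class was examined cell by cell.

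Each cell was thinned to 5000 UMIs, which left out 2 class cells of lower depth, and the genes with at least 1 UMI were counted among 40 tuft and 47 enteroendocrine genes. A cell with 3 or more genes of a list was said to hold that programme. Of 106 cells, 19 held the tuft programme, 22 the enteroendocrine programme only, and 65 neither (61.3%, exact binomial 95% interval 51.4% to 70.6%). The tuft programme was all or nothing: its 19 cells had 9 to 24 of the 40 genes, while 69 of the other cells had 0, 15 had 1 and 3 had 2. The enteroendocrine numbers ran on without a gap, with 9 cells at 2 genes and 9 cells at 3, up to 1 cell at 10. A single cell passed both thresholds, with 3 enteroendocrine genes, and is counted with the tuft cells. None of 4326 enterocytes (a share of up to 0.0693% is allowed by a count of 0) and none of 519 goblet cells (up to 0.578%) held 3 tuft genes, and 4 enterocytes and 1 goblet cell held 3 enteroendocrine genes.

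**Figure D1:**
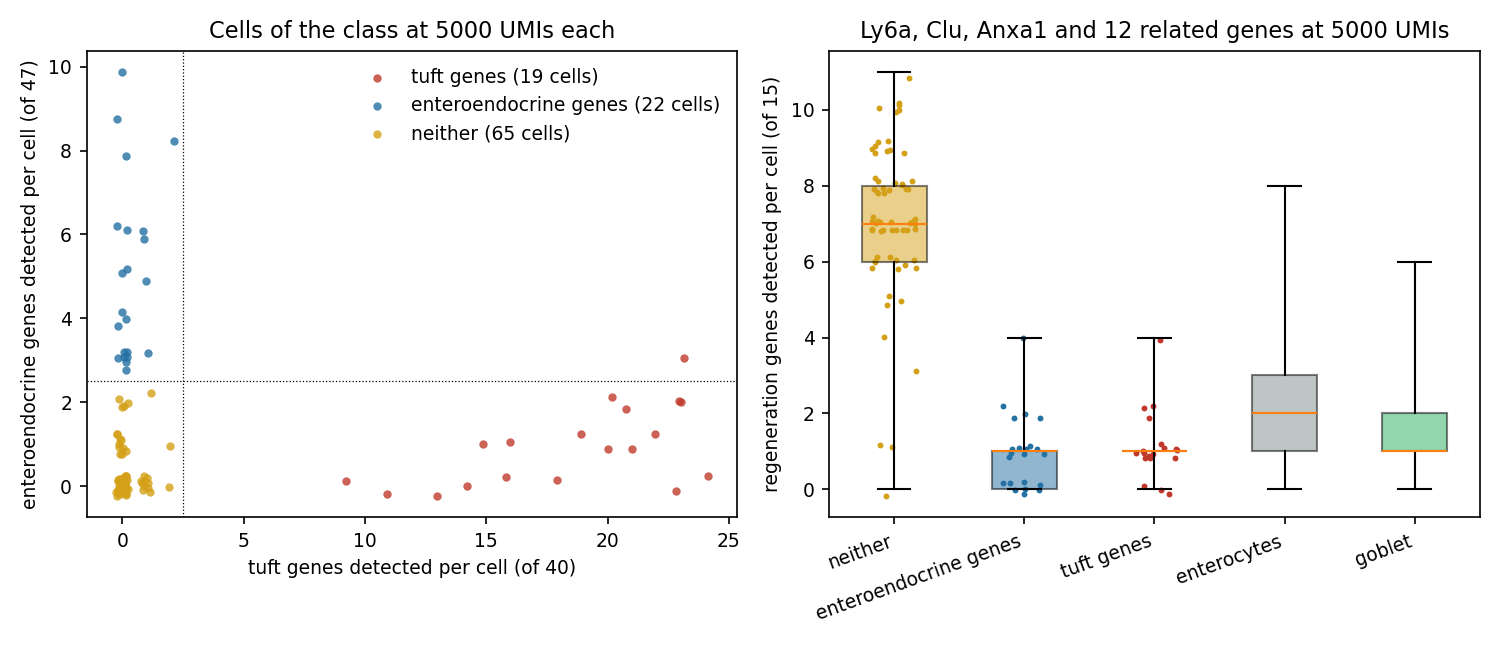
Marker genes per class cell after thinning to 5000 UMIs. Left, number of tuft genes (of 40) against number of enteroendocrine genes (of 47), 1 point per cell with dotted lines at the threshold of 3, where 19 cells stand apart at 9 or more tuft genes. Right, number of 15 genes of a regeneration list per cell (box, quartiles; whiskers, lowest and highest), with a median of 7 in cells with neither programme, and of 1 to 2 in the other sets.

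The 3 kinds of cell were in every library in different numbers. Cells with the tuft programme numbered 2 and 1 in DMSO, 4 and 6 after 13 h, and 4 and 2 after 25 h. Those with the enteroendocrine programme only numbered 6 and 8 in DMSO, 1 and 3 after 13 h, and 2 and 2 after 25 h. Cells with neither numbered 18 and 10 in DMSO, 12 and 10 after 13 h, and 7 and 8 after 25 h. Tuft-programme cells were fewer, and enteroendocrine-programme cells more numerous, in DMSO libraries than in any 13 h library, on counts of at most 8 cells a library. With 2 libraries a group an exact permutation test cannot go below p = 0.3333, and none was run.

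**Figure D2:**
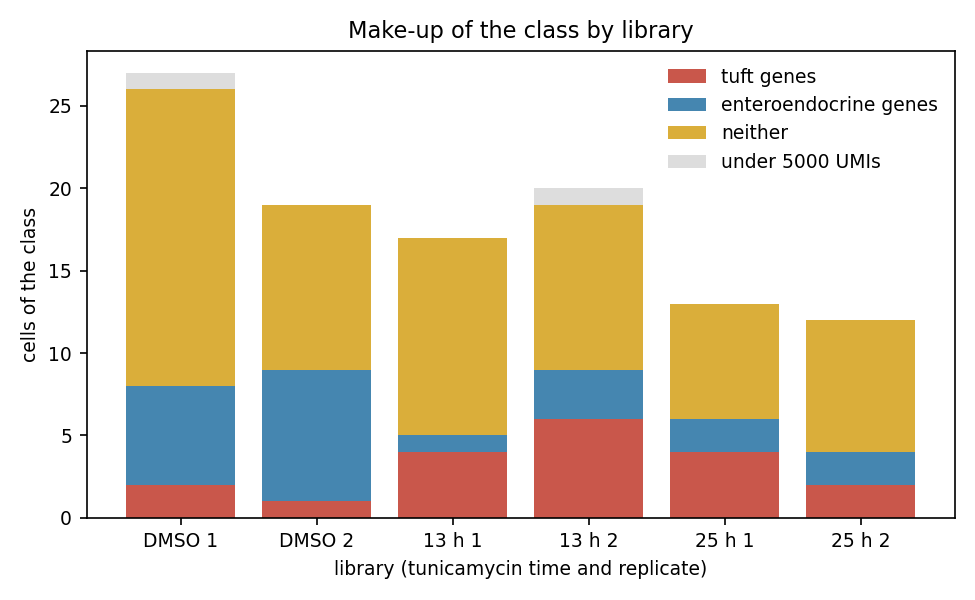
Number of class cells per library by programme. Bars are stacked by set (tuft genes, enteroendocrine genes, neither, under 5000 UMIs), and cells with neither programme are the most numerous set in all 6 libraries, from 7 to 18.

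Clustering the class cells on their own gave nearly the same division (Ward linkage, number of clusters set to 3). It used the 1000 most variable genes, from which the genes of the programme lists were not taken out. A cluster of 18 cells held 17 of the 19 tuft-programme cells and had Rgs13, Gng13, Gnb3, Fxyd6, Reep5, Ltc4s, Lrmp, Avil and Limd2 among its leading genes, so it is tuft-like by its fixed markers. A cluster of 27 cells held all 22 enteroendocrine-programme cells, 2 tuft-programme cells and 3 cells with neither programme. Its leading genes were Sct, Nts, Car1, Sis, Tff3, Krt20, Fcgbp, Fabp2, Neurod1 and Clec2h, of which absorptive and goblet genes outnumber the enteroendocrine ones, so it is left unnamed. The cluster of 63 cells held 62 of the cells with neither programme, was led by Ly6a, Clu, Serpinb9b, F3, Fn1, Anxa3, Gsta1, Ccnd2, Msln and Cryab, and is also left unnamed. Most cells of the class therefore go against its label. All levels that follow describe sets chosen by genes of the same cells and carry no test.

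Tuft-programme cells expressed nearly the whole canonical tuft set. From summed UMIs, Gng13, a G protein subunit of taste signalling, stood at 2916 CPM and had a UMI in 19 of 19 cells, against 0.369 CPM in enterocytes. Trpm5 stood at 274 CPM (18 cells), between 87.2 and 435 CPM over the libraries, and was at 0 in the 22 enteroendocrine-programme cells and the 65 cells with neither. Lrmp was at 1010 CPM (19 cells) and Dclk1 at 444 CPM (16 cells), and both were at 0 in the 22 and the 65 other cells. Among class cells of sufficient depth, these 3 genes were found only in those with the tuft programme. The Trpm5 pathway was covered by Gnb3 (781 CPM), the taste G protein Gnat3 (278 CPM) and Rgs13 (1324 CPM), and 9 of its 10 listed genes had a UMI, with a sum of 5922 CPM in tuft-programme cells, against 3.28 CPM in enterocytes.

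Genes of eicosanoid synthesis were also present in tuft-programme cells. Ltc4s, leukotriene C4 synthase, stood at 754 CPM in 19 of 19 cells, Alox5ap at 211 CPM in 12, Ptgs1 (cyclooxygenase 1) at 162 CPM in 12 and Hpgds (prostaglandin D synthase) at 85.2 CPM in 11, while Alox5 was at 0. The transcription factors Pou2f3 (211 CPM, 16 cells), Spib (283 CPM), Ascl2 (363 CPM), Hmx2 (287 CPM) and Gfi1b (35.9 CPM) summed, with Hmx3, to 1234 CPM, against 0.158 CPM in enterocytes. Il25 had a UMI in 5 of the 19 cells (35.9 CPM), its receptor subunit Il17rb in 8, the interleukin 13 receptor Il13ra1 in 17, and Chat, the enzyme that makes acetylcholine, in 7. Siglecf, Tslp, Rgs21 and the leukocyte gene Ptprc, also reported in tuft cells, were at 0. Kcna6, a potassium channel gene, reached 1422 CPM, against 0.0264 CPM in enterocytes. Cryba2, kept in the enteroendocrine list, had a UMI in 12 of the 19 tuft-programme cells (80.8 CPM).

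Genes that followed Trpm5 across the 108 cells were Limd2 (Pearson r = 0.92), Rbm38 (0.91), Hap1 (0.90), Vav1 (0.89), Gng13 (0.89), Ltc4s (0.89), Avil (0.89), Atp2a3 (0.88), Lrmp (0.88) and Pgm2l1 (0.87). The likeness is of log2(CPM/100 + 1) over single cells, which share their libraries and differ in depth, and is given as a description. Gng13, Ltc4s, Avil and Lrmp were already in the tuft lists, while Limd2, Rbm38, Hap1, Atp2a3 and Pgm2l1 were not.

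**Figure D3:**
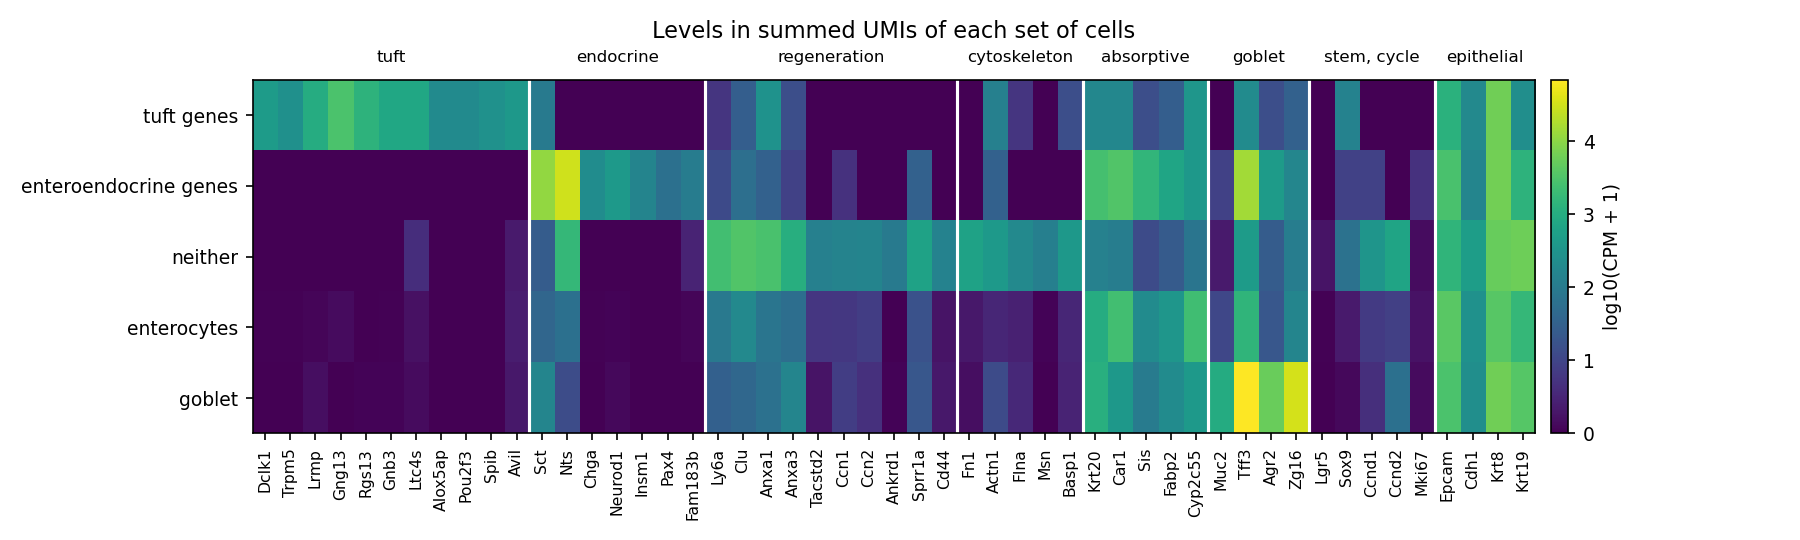
Levels of marker genes in each set of cells, as log10(CPM + 1) of summed UMIs. Rows are the 3 sets of the class, then enterocytes and goblet cells; columns are genes in blocks by list. Trpm5 stands at 274 CPM in tuft-programme cells and at 0 in the other sets of the class, Sct at 11599 CPM in enteroendocrine-programme cells, and Fn1 at 615 CPM in cells with neither.

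Enteroendocrine-programme cells carried secretin and neurotensin but few other hormones. Sct had a UMI in 22 of 22 cells and stood at 11599 CPM, against 94.2 CPM in tuft-programme cells, 24.8 CPM in cells with neither, 39.2 CPM in enterocytes and 158 CPM in goblet cells. Single cells held 253 to 50400 CPM of Sct, with a median of 6781. After thinning to 5000 UMIs, 15.8% of enterocytes and 37.6% of goblet cells also had a Sct UMI, so that the 12.3% among cells with neither is at the background of the other classes. Nts (neurotensin) stood at 30746 CPM in 20 of the 22 cells and differed widely between libraries. It stood at 8178 and 76171 CPM in DMSO, 18568 and 21146 after 13 h, and 24152 and 725 after 25 h. Nts was not confined to this set, as cells with neither programme held 4027 of the 12067 Nts UMIs of the class. Few of those cells held most of these UMIs, and their median cell had 0 CPM. The highest held 1534 of 1542 in DMSO replicate 1. In DMSO replicate 2, the 2 highest held 1211 and 814 of 2136, each with 2 enteroendocrine genes. Chga had a UMI in 16 of the 22 cells (222 CPM) and was at 0 in the other sets. Cck, Gcg, Pyy, Sst, Gip and Ghrl, hormones of other enteroendocrine cells, were at 0, as were Tph1, which makes serotonin, and Chgb, and 2 of 13 listed hormones were found in all.

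The same cells held the transcription factors Neurod1 (390 CPM, 14 of 22 cells), Insm1 (149 CPM, 11 cells) and Pax4 (61.2 CPM, 5 cells), which act in enteroendocrine differentiation, and Neurog3 and Pax6 were at 0. They also held genes of absorptive and goblet cells. Krt20, a keratin of differentiated epithelium, had a per-cell median of 2186 CPM, against 850 CPM in enterocytes, and Sis, the brush border enzyme sucrase-isomaltase, of 1342 CPM, against 154 CPM. Tff3, a goblet cell trefoil peptide, had a per-cell median of 14939 CPM in these cells, against 198 in enterocytes and 70741 in goblet cells. The goblet mucin Muc2 had a UMI in 2 of the 22 cells (7.65 CPM), against 971 CPM in goblet cells. Across the 108 cells Sis (r = 0.80) and the peptide transporter gene Slc15a1 (0.80) followed Chga about as closely as Sct did (0.77).

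Cells with neither programme made up most of the class and had an expression pattern of their own. Ly6a (Sca-1), a surface protein of the regenerating colonic epithelium, had a UMI in 62 of 65 cells. It stood at 2425 and 2346 CPM in these cells in DMSO, 3339 and 1614 after 13 h, and 943 and 2229 after 25 h, against 89.9 CPM in enterocytes and 29.0 CPM in goblet cells. Clu (clusterin), a secreted chaperone that marks revival stem cells of the damaged intestine, stood at 3334 CPM in 61 of 65 cells, against 190 CPM in enterocytes. Anxa1, a calcium-dependent phospholipid-binding protein, stood at 2828 CPM, against 74.5 CPM. Fn1 (fibronectin) stood at 615 CPM in 52 of 65 cells, against 1.03 CPM in enterocytes, and was at 0 in both other sets of the class. Both genes were above enterocytes in every library, but differed between libraries: Fn1 lay between 343 and 1056 CPM in cells with neither programme, and Clu between 916 and 6381 CPM, the lowest value of both in 25 h replicate 2.

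A list of 15 genes known from regenerating or fetal-like intestinal epithelium was set up after these values were seen, so its counts are a description. Cells with neither programme had a median of 7 of its genes at 5000 UMIs, and 57 of 65 had 6 or more. The median was 2 in enterocytes, of which 69 of 4326 (1.6%) had 6 or more, 1 in goblet cells and 1 in both other sets of the class, where no cell had 6. Beside Ly6a, Clu and Anxa1, its members Anxa3 (1069 CPM), Msln (1120 CPM), the receptor Tnfrsf12a (660 CPM), Sprr1a (613 CPM) and Cd44 (142 CPM) were detected in cells with neither programme, as were Ccn1 (145 CPM), Ccn2 (153 CPM) and Ankrd1 (98.6 CPM), known targets of the coactivator YAP. Sprr1a had a UMI in 31 of the 65 cells only, with a per-cell median of 0 and up to 11420 CPM, and Ankrd1 in 25. Spp1 was at 0, and Gja1 (0.42 CPM) and Il33 (2.52 CPM) were close to it. Among 19 genes of the cytoskeleton and adhesion, also chosen after values were seen, the median cell held 9, against 2 in enterocytes, and their sum was 5674 CPM, against 914 CPM.

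Ankrd1 and Ccn1 are shown with the 250 bases before their RefSeq start (GRCm38.p6), because they are leading genes of these cells that hold the TEAD core GGAATG, the site through which YAP partners bind. Capitals mark the core or, in Ccn1, its reverse complement. Ankrd1 lies at chr19:36119845-36120094 and Ccn1 at chr3:145649986-145650235, both on the minus strand.
Ankrd1: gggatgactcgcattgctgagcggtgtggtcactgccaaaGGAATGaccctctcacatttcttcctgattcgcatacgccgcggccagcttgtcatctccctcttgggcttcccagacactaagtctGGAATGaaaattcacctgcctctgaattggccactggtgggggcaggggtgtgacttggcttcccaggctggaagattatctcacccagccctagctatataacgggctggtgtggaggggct
Ccn1: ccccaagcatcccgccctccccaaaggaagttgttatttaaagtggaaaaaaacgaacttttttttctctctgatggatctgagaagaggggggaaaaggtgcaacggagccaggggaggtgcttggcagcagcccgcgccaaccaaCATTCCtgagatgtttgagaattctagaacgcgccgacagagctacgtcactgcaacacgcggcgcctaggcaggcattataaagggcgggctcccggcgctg
Of 26 leading genes of these cells with a promoter in the table, 8 held the core on either strand (30.8%), as did 14.3% of 26794 genes, 3 of 32 leading genes of the tuft-programme cells and 2 of 31 of the enteroendocrine-programme cells. The AP-1 site TGACTCA was in 4 of 26, against 5.19% of all genes, and the octamer ATGCAAAT, which POU factors bind, in 3 of 32 tuft leading genes, against 1.83% of all. A match is a run of letters and not a shown site.

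Cells with neither programme were epithelial. Epcam (1480 CPM) and Cdh1 (506 CPM) had a UMI in 65 of 65 cells. Krt8 stood at 5124 CPM and Krt19 at 6051 CPM. Of 10 mesenchymal genes, 4 had any UMI, with 5 UMIs in all, and Col1a1, Col1a2, Col3a1, Dcn and Acta2 were at 0. Of 13 immune genes, 4 had a UMI and summed to 33.2 CPM, between 4.24 and 53.2 CPM over the libraries, with Csf1r at 15.5 CPM in 15 cells and Ptprc at 0. The 22 enterocyte genes summed to 688 CPM, against 10319 CPM in enterocytes. Of 14 stem cell genes, 11 had a UMI, and they summed to 349.6 CPM, against 302 CPM in enterocytes, 7 of them being above enterocytes. Among them Lgr5 (1 UMI-positive cell of 65, 0.839 CPM) and Olfm4 (0) were at or near 0, while Sox9, a factor of progenitors, stood at 66.3 CPM in 39 cells, against 1.23 CPM in enterocytes, and Sox4 at 474 CPM, against 28.8 CPM. The cyclins Ccnd1 (331 CPM) and Ccnd2 (679 CPM) were high, against 5.51 and 7.40 CPM in enterocytes, both being regulators of the entry into the cell cycle. Of 20 proliferation genes, 18 had a UMI, with a sum of 1523 CPM, against 511 CPM in enterocytes, and 14 were above enterocytes. Tubb5 (771 CPM), H2afz (522 CPM) and Stmn1 (138 CPM), which are also expressed outside the cell cycle, made up most of that sum. The mitotic markers Mki67 and Top2a had a UMI in 1 and 2 cells, Cdk1 in 9 and Ube2c in 9.

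A further set of genes in these cells is best known from stratified epithelium and was also singled out after its values were seen. Krt6a stood at 72.2 CPM in 33 of 65 cells, against 0.0396 CPM in enterocytes. Krt14 was at 43.6 CPM in 9 cells, S100a7a at 171 CPM in 41, and Lce6a, of the late cornified envelope family, at 105 CPM in 35. Lce1h, of the same family, stood at 347 CPM but in 20 cells only, with up to 10414 CPM in 1 cell. The basal-layer factor Trp63 was at 0 and Krt5 at 0.42 CPM. Cells with neither programme were also deeper than the others, with a median of 26866 UMIs (5921 to 157040), against 10613 in tuft-programme cells, 10209 in enteroendocrine-programme cells and 15988 in enterocytes. Their median Scrublet score was 0.082, against 0.069 in enterocytes. The part of depth in the unthinned shares of cells was not tested, while the counts of list genes above are at a single depth.

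The genes by which the whole class differed most from the other classes were largely those of the cells with neither programme, which hold most of its UMIs. Ranked by the lowest of 6 per-library ratios, the genes highest over enterocytes were Fn1 (mean log2 ratio 6.42, with 5 CPM added to both sides), Serpinb9b (6.03), Actn1 (5.47), Cryab (5.77), Cd24a (5.14), Tuba1a (5.35) and Marcksl1 (5.31). Those highest over goblet cells were Serpinb9b (7.07), Fn1 (6.54), Basp1 (5.43), Tuba1a (5.50) and Cryab (5.87). Serpinb9b stood at 1323 CPM in cells with neither and at 0 in tuft-programme cells, and Cryab, a small heat shock protein, at 387 CPM and at 0. Exceptions were Cd24a, with 1445 CPM in tuft-programme cells and 222 CPM in cells with neither, and Tuba1a, a tubulin, with 345 CPM in tuft-programme cells, 329 CPM in enteroendocrine-programme cells and 269.8 CPM in cells with neither. Cnn3, further down the goblet comparison, was another, with 435 CPM in tuft-programme cells and 64.2 CPM in cells with neither. None of the 5 markers of the class was among the 15 highest genes of either comparison.

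Genes of the unfolded protein response rose in the class under Tm. This response has 3 arms: PERK, which raises Atf4 and then Ddit3 (CHOP) and Trib3, ATF6, which raises ER chaperones, and IRE1, which splices Xbp1. Hspa5 (BiP), the main ER Hsp70 chaperone, stood at 456 and 438 TMM-scaled CPM in DMSO, 3499 and 3396 after 13 h, and 2821 and 3794 after 25 h. The fold was 2.94 ± 0.25 (log2, SE) at 13 h and 2.89 ± 0.25 at 25 h (edgeR quasi-likelihood test, adjusted p = 6.64e-05 and 0.000165). Ddit3, a factor of stress-induced cell death, stood at 41.6 and 33.2 CPM in DMSO, 589 and 1342 after 13 h, and 424 and 676 after 25 h (log2 fold 4.64 ± 0.45 and 3.84 ± 0.45, adjusted p = 0.000208 and 0.00126). Both genes were far above DMSO in all 4 Tm libraries.

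In the edgeR fit over 6030 genes, 38 genes rose and 9 fell at 13 h against DMSO, and 35 rose and 12 fell at 25 h against DMSO. That is 0.63% and 0.149% of the genes tested at 13 h and 0.58% and 0.199% at 25 h, or 0.779% in either direction at both times. The median log2 fold over all genes was -0.02 at 13 h and 0.01 at 25 h. Between 25 h and 13 h, edgeR called 0 genes (0%), with 238 at an unadjusted p under 0.05, and DESeq2 called 0 higher and 1 lower. The counts depend on single libraries: without DMSO replicate 1 or 2, 25 and 20 genes rose at 13 h and 22 and 17 at 25 h, and without 25 h replicate 1 or 2, 85 and 71 rose at 13 h. The 9 genes that fell at 13 h became 30 without DMSO replicate 1, 16 and 32 without 13 h replicate 1 or 2, and 74 and 47 without 25 h replicate 1 or 2, and the 12 at 25 h became 26 and 32 without 13 h replicate 1 or 2 and 33 without 25 h replicate 1.

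ER chaperones and folding enzymes were the most affected list: 14 of 21 rose at 13 h and 12 of 21 at 25 h, with median log2 folds of 1.89 and 1.82 and none called lower. Creld2, an ER resident disulfide isomerase-like protein, stood at 22.7 and 9.97 CPM in DMSO, 492 and 703 after 13 h, and 305 and 415 after 25 h (log2 fold 5.00 ± 0.40, adjusted p = 6.64e-05 at 13 h). Sdf2l1, a BiP cofactor, stood at 85.7 and 79.7 CPM in DMSO, 1002 and 1291 after 13 h, and 870 and 845 after 25 h (3.78 ± 0.28, adjusted p = 6.64e-05 at 13 h). For both genes the groups did not overlap and the 25 h libraries lay below the 13 h ones. Among cells with neither programme, the highest cell held 225 of 303 Creld2 UMIs in 13 h replicate 2. The median of these cells had 0 CPM of Creld2 in both DMSO libraries, 297 and 141 after 13 h, and 152 and 299 after 25 h. Hsp90b1 (GRP94) had 294 and 299 CPM in DMSO, 2004 and 2270 after 13 h, and 1357 and 1951 after 25 h. Fkbp11, an ER prolyl isomerase, also rose (3.73 ± 0.69, adjusted p = 0.0251 at 13 h), but its call was lost without either DMSO library and at 25 h also without 25 h replicate 2, where its log2 fold was 2.16. Its rise rests on few cells: among cells with neither programme, the highest held 46 of 62 and 31 of 33 UMIs after 13 h. The median of these cells had 9.31 and 0 CPM of Fkbp11 after 13 h, and 0 in both 25 h libraries.

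**Figure D4:**
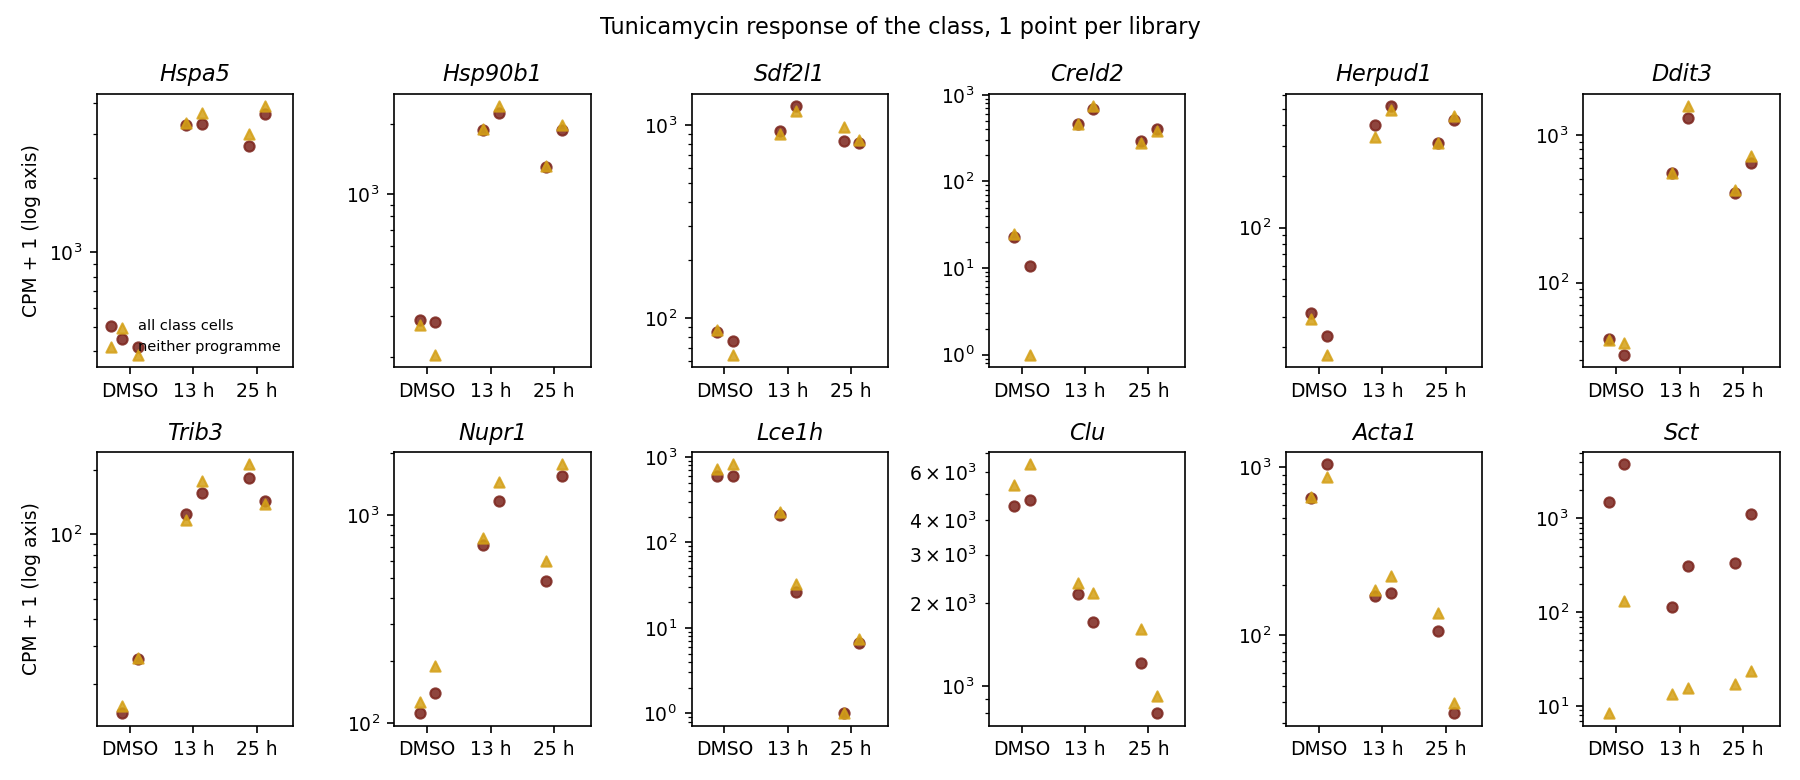
Levels of 12 genes in the class by library, as CPM + 1 on a log axis. Circles are all class cells and triangles the cells with neither programme, in DMSO, 13 h and 25 h. Hspa5, Hsp90b1, Sdf2l1, Creld2, Herpud1, Ddit3, Trib3 and Nupr1 are higher in every Tm library than in both DMSO libraries, and Clu and Acta1 lower.

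Of 14 genes of ER-associated degradation, Herpud1, Derl3, Sel1l and Selenos rose at 13 h and Herpud1 and Derl3 at 25 h (medians 1.15 and 1.04). Herpud1, which recruits the degradation ligase, stood at 31.5 and 23.3 CPM in DMSO, 426 and 531 after 13 h, and 327 and 447 after 25 h (4.06 ± 0.34, adjusted p = 6.64e-05 at 13 h). Derl3, a derlin of the retrotranslocation channel, had no UMI in DMSO, 55.5 and 156 CPM after 13 h, and 42.4 and 78.4 after 25 h (adjusted p = 0.00431 and 0.0154). The call for Derl3 at 25 h was lost without DMSO replicate 1 and without 25 h replicate 2. Among cells with neither programme, the highest cell held 7 of 10 and 24 of 26 Derl3 UMIs in 25 h replicates 1 and 2. The median of these cells had 16.6 and 113 CPM of Derl3 after 13 h, and 38.2 and 0 CPM after 25 h.

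The promoters of Hspa5, Creld2 and Derl3, 3 genes that rose, are shown because each holds the ER stress element to which ATF6 binds with NF-Y, CCAAT and CCACG with 9 bases between them. They are the 250 bases before the RefSeq start (GRCm38.p6), at chr2:34771840-34772089, chr15:88819396-88819645 and chr10:75893148-75893397, all on the plus strand. Capitals mark the element or, in Creld2 and Derl3, its reverse complement.
Hspa5: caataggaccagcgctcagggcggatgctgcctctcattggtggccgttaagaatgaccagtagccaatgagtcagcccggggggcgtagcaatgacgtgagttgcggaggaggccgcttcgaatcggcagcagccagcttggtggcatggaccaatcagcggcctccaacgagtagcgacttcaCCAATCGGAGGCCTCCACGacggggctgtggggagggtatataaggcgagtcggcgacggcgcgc
Creld2: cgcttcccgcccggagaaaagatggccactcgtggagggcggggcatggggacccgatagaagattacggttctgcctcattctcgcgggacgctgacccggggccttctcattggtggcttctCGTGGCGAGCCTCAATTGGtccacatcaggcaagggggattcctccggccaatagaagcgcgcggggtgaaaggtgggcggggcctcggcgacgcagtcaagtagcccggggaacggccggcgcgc
Derl3: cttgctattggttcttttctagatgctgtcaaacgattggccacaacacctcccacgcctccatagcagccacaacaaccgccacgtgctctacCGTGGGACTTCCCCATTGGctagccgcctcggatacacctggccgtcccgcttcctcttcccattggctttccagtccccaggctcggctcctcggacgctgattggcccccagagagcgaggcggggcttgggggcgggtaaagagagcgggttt
The element was in 7 of 17 chaperone-list genes with a promoter in the table (Hspa5, Hsp90b1, Dnajc3, Pdia6, Calr, Canx and Creld2), in 2 of 12 genes of ER-associated degradation and in 0 of 14 of the PERK list, against 0.131% of 26794 genes. TGATGCAA, the core to which ATF4 dimers bind in amino acid response elements, was in 4 of 14 PERK-list genes (Atf3, Chac1, Nupr1 and Vldlr), against 0.9% of all genes. In all, 5 motifs were searched on both strands in 250 bases.

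The PERK and ATF4 targets rose in part. Of 14 tested, Ddit3, Trib3, Nupr1, Atf5 and Chac1 rose at both times and Cebpb at 25 h, with medians of 1.37 and 1.75, and all 14 had a positive log2 fold. Trib3, a pseudokinase that restrains AKT, stood at 13.9 and 26.6 CPM in DMSO, 132 and 160 after 13 h, and 191 and 148 after 25 h. Nupr1, a small stress-induced chromatin protein, stood at 113 and 146 CPM in DMSO, 773 and 1206 after 13 h, and 505 and 1620 after 25 h, and lost its call without DMSO replicate 1. Among cells with neither programme, the highest cell held 357 of 590 Nupr1 UMIs in 13 h replicate 2. The median of these cells had 25.95 and 7.78 CPM of Nupr1 in DMSO, 609 and 771 after 13 h, and 521 and 750 after 25 h. Atf4 itself had 169 and 130 CPM in DMSO, 319 and 383 after 13 h, and 378 and 366 after 25 h, with no overlap, but did not pass (1.21 ± 0.27, adjusted p = 0.0636, and 1.29 ± 0.27, adjusted p = 0.0569). Xbp1, whose total RNA and not splicing is measured here, had log2 folds of 0.55 ± 0.30 and 0.46 ± 0.31 and did not pass (adjusted p = 0.6 and 0.719). Of 15 genes of amino acid supply, the transporters Slc3a2 and Slc7a11 rose at 13 h and Slc3a2 at 25 h, and Asns did not pass (0.94 ± 0.39, adjusted p = 0.418 at 13 h). None of 19 tRNA synthetase genes, 16 cholesterol synthesis genes and 8 interferon-stimulated genes passed at either time, and the cholesterol list had medians of -1.07 and -0.72. In cells with neither programme the cholesterol list summed to 1134 and 1375 CPM in DMSO, 940 and 505 after 13 h, and 1436 and 797 after 25 h. In enteroendocrine-programme cells it summed to 3058 and 6962 CPM in DMSO, 1800 and 4902 after 13 h, and 2076 and 2583 after 25 h. The numbers of those cells differ between libraries, and their part in the medians was not tested.

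Several genes of the cells with neither programme fell. Clu stood at 4604 and 5003 CPM in DMSO, 2315 and 1753 after 13 h, and 1264 and 830 after 25 h (-2.20 ± 0.27 at 25 h, adjusted p = 0.00144). Acta1, a skeletal muscle actin, stood at 674 and 1100 CPM in DMSO, 182 and 182 after 13 h, and 110 and 34.8 after 25 h (-2.28 ± 0.39 and -3.67 ± 0.45, adjusted p = 0.0154 and 0.00144), and its 13 h call was lost without DMSO replicate 2 (adjusted p = 0.0648). Lce1h stood at 616 and 641 CPM in DMSO, 224 and 25.7 after 13 h, and 0 and 5.81 after 25 h (adjusted p = 0.00432 at 25 h). These 3 were lowest at 25 h in every case, and single cells weigh heavily in all of them. Of the UMIs of cells with neither programme in DMSO replicates 1 and 2, the highest cell held 1105 of 3640 and 957 of 1504 for Clu, 326 of 451 and 144 of 207 for Acta1, and 273 of 489 and 180 of 193 for Lce1h. The median cell with neither programme had 2559 and 2576 CPM of Clu in DMSO, 1087 and 2261 after 13 h, and 651 and 1022 after 25 h, and it had no Lce1h UMI in any library. For Acta1 the median cell had 0 and 198 CPM in DMSO, 3.18 and 101 after 13 h, and 0 and 16.1 after 25 h, so that the groups overlap. Of 12 regeneration genes tested, Clu was the only one called. Ly6a (0.22 ± 0.44 at 13 h and -0.50 ± 0.45 at 25 h, adjusted p = 0.939 and 0.836), Anxa1 (-0.74 ± 0.42 and -0.63 ± 0.42, adjusted p = 0.63 and 0.723) and Fn1 (-0.41 ± 0.36 and -0.45 ± 0.36, adjusted p = 0.823 and 0.795) did not pass.

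The values of the enteroendocrine and tuft genes moved with the numbers of their cells, whose part in these results was not tested. Sct fell at 13 h (-3.65 ± 0.61, adjusted p = 0.0138) and Sis fell too (-3.18 ± 0.55, adjusted p = 0.0156), where enteroendocrine-programme cells numbered 1 and 3 at 13 h, against 6 and 8 in DMSO. Within these cells Sct made up 1198 of 97459 and 1165 of 75987 UMIs in DMSO. It made up 61 of 10556 and 140 of 31826 after 13 h, a lower share in both libraries. After 25 h it made up 78 of 23601 and 391 of 22068, which lie on both sides of DMSO. The parts of cell number and level were not tested. At 25 h Sct did not pass (-1.85 ± 0.57, adjusted p = 0.216). Dclk1 (2.75 ± 0.81, adjusted p = 0.199), Trpm5 (3.57 ± 0.88, adjusted p = 0.1) and Lrmp (2.21 ± 0.76, adjusted p = 0.282) were not called at 13 h, and none of the tuft-list genes tested (7, 3, 4, 6 and 11 of the 5 lists) was called at either time. All 7 genes of the taste pathway that were tested had a positive log2 fold at both times, beside 2 and 1 tuft-programme cells in DMSO, 4 and 6 after 13 h, and 4 and 2 after 25 h. Mmp7 (adjusted p = 0.0138), a metalloprotease of Paneth cells, was at 0 in both 13 h libraries, and Zg16, a goblet lectin, fell at 25 h (-3.81 ± 0.68, adjusted p = 0.0245), a call lost without DMSO replicate 1 or 25 h replicate 2. Cells with neither programme held 49 of the 49 Mmp7 UMIs of the class and 235 of its 255 Zg16 UMIs in DMSO. Among them, the highest cell held 31 of 36 and 12 of 12 Mmp7 UMIs in DMSO replicates 1 and 2. For Zg16 it held 173 of 214 and 6 of 21.

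Within the 65 cells with neither programme alone, the calls were much the same. These cells hold 2383055 of the 2876317 UMIs of the class. The 2 fits therefore share most of their counts, and their overlap is not independent evidence. Over 5285 genes, 33 rose and 10 fell at 13 h (0.624% and 0.189%) and 30 rose and 12 fell at 25 h (0.568% and 0.227%), and edgeR called 0 between 25 h and 13 h (0.814%, 0.795% and 0% in either direction). All 33 that rose at 13 h were among the 38 of the whole class, and 28 of the 30 at 25 h were among the 35. Of the 9 that fell in the class at 13 h, 6 could be tested and 3 were called. Hspa5 had a log2 fold of 3.03 ± 0.26 at 13 h in these cells and Ddit3 of 4.78 ± 0.50 (adjusted p = 4.22e-05 and 0.000246). The median cell had 188 and 131 CPM of Hspa5 in DMSO, 2327 and 2754 after 13 h, and 1194 and 3376 after 25 h, so that these groups do not overlap by the median cell either. Clu fell at both times in them (-1.32 ± 0.27 and -2.17 ± 0.28, adjusted p = 0.0395 and 0.00117). Tff3 (-3.76 ± 0.61, adjusted p = 0.00702) and Lypd8 (-3.16 ± 0.49, adjusted p = 0.00493), which coats flagellated bacteria in the colon, fell at 13 h in the summed UMIs. Few DMSO cells held most of these UMIs: for Tff3 the highest cell held 420 of 534 in DMSO replicate 1 and the 2 highest held 202 and 100 of 337 in DMSO replicate 2, both with 2 enteroendocrine genes, and for Lypd8 the highest cell held 179 of 325 and 141 of 211. The median cell had 208.5 and 219 CPM of Tff3 in DMSO, 57.9 and 102 after 13 h, and 118 and 48.8 after 25 h. The tuft-programme and enteroendocrine-programme cells, at 1 to 8 per library, were not fitted on their own. Their 21 chaperone genes summed to 2559 and 11029 CPM in DMSO, 12937 and 14110 after 13 h, and 4420 and 12631 after 25 h for tuft-programme cells. In enteroendocrine-programme cells they summed to 4053 and 3974 CPM in DMSO, 24536 and 15836 after 13 h, and 17796 and 11329 after 25 h. The groups overlap in tuft-programme cells, where DMSO replicate 2 is a single cell, and do not overlap in enteroendocrine-programme cells.

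The response of the class was set against that of enterocytes and goblet cells as the interaction of class and treatment, with each library as a block. The fit has a single spread per gene for both classes, so a larger spread between class libraries has no term of its own. Against enterocytes, 8 of 11302 genes responded more in the positive direction in the class and 28 more in the negative direction at 13 h (0.0708% and 0.248%, 0.319% in either direction), and 3 and 21 at 25 h (0.0265% and 0.186%, 0.212% in either). Against goblet cells, of 8767 genes, 11 and 17 did so at 13 h (0.125% and 0.194%, 0.319% in either) and 10 and 54 at 25 h (0.114% and 0.616%, 0.73% in either). These counts moved with single libraries in most cases: without 25 h replicate 1 or 2 those at 13 h were 57 and 127, and 56 and 126, against enterocytes, and 34 and 77, and 41 and 73, against goblet cells. Those at 25 h against goblet cells were 3 and 6 without DMSO replicate 1 and 39 and 108 without 25 h replicate 2, and those at 25 h against enterocytes lay at 9 to 24 and 33 to 66 without any single library.

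Herpud1 differed from both classes at both times. The class had 30.7 and 22.01 CPM (plain CPM of summed UMIs here) in DMSO, 398 and 517 after 13 h, and 312 and 428 after 25 h. Enterocytes had 92.1 and 104 CPM in DMSO, 521 and 592 after 13 h, and 339 and 330 after 25 h. Goblet cells had 133 and 175 CPM in DMSO, 627 and 674 after 13 h, and 383 and 413 after 25 h. The class was lowest of the 3 in DMSO, and at 25 h its libraries overlapped those of both other classes. The log2 response of the class minus that of enterocytes was 1.58 ± 0.36 at 13 h and 1.95 ± 0.37 at 25 h (edgeR, adjusted p = 0.04998 and 0.00851), and minus that of goblet cells 2.12 ± 0.37 and 2.47 ± 0.38 (adjusted p = 0.00715 and 0.00113). The 13 h call against enterocytes was lost without DMSO replicate 2 or either 13 h library.

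Ccnd2 and the metallothionein gene Mt1 also responded differently in the class. Ccnd2 (cyclin D2) stood at 251 and 397 CPM in the class at 25 h, against 1025 and 513 in DMSO, while enterocytes had 14.9 and 13.2 at 25 h, against 3.56 and 3.28 in DMSO, and goblet cells 105 and 130, against 10.8 and 4.40. The difference in response at 25 h was -3.23 ± 0.40 against enterocytes and -5.04 ± 0.42 against goblet cells (adjusted p = 5.13e-05 and 3.97e-07), and the lower level within the class itself did not pass (-1.23 ± 0.40, adjusted p = 0.263). In DMSO replicate 1, 2 cells held 370 and 333 of the 834 Ccnd2 UMIs of cells with neither programme, and in DMSO replicate 2 a single cell held 119 of 163. The median cell with neither programme had 188.5 and 251 CPM at 25 h, against 154.5 and 131 CPM in DMSO, which is not lower. Mt1, a metal-binding metallothionein, stood at 1002 and 489 CPM in the class at 25 h, against 1372 and 176 in DMSO, and in enterocytes at 213 and 272, against 1750 and 1789. Its response at 25 h differed by 3.24 ± 0.56 (adjusted p = 0.00355), and in the class the groups overlap. In DMSO replicate 1, the highest cell with neither programme held 359 of the 640 Mt1 UMIs of those cells. Enteroendocrine-programme cells held 467 of the 1116 Mt1 UMIs of the class in DMSO replicate 1 and 10 of 56 in DMSO replicate 2. At 25 h they held 0 of 247 and 61 of 176, and the part of their number was not tested.

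Some interferon-stimulated genes and 3 other genes differed from goblet cells. Of 14 interferon-list genes tested, 4 (Irf7, Oasl2, Rsad2 and Ifit1) responded more in the positive direction at 13 h and 3 (Irf7, Isg15 and Oasl2) at 25 h, and none in the negative, with median differences of 1.96 and 1.72, against -0.01 and -0.02 over all genes. Against enterocytes 1 of 18, Ifit1, did so at 13 h and 0 at 25 h. The call for Isg15 was lost without either DMSO library, and its difference was -0.10 without 25 h replicate 2. The 13 h call for Irf7 was lost without either DMSO library or 13 h replicate 2. Ifit1 stood at 29.1 and 121 CPM in the class at 13 h, against 78.7 and 37.7 in DMSO, and in goblet cells at 11.4 and 7.59, against 155 and 157 (difference 4.39 ± 0.55, adjusted p = 0.000266). Irf7, a factor of the interferon response, stood at 89.2 and 117 CPM in the class at 25 h, against 98.3 and 62.9 in DMSO, and in goblet cells at 64.5 and 62.0, against 272 and 263 (2.57 ± 0.41, adjusted p = 0.00194). For both genes the goblet groups are far apart and the class groups overlap. Among cells with neither programme, the highest cell held 40 of 56 and 10 of 11 Ifit1 UMIs in DMSO replicates 1 and 2. Rnase1, a secreted ribonuclease, stood at 81.1 and 63.9 CPM in the class at 25 h, against 79.9 and 22.01 in DMSO, and in goblet cells at 47.01 and 58.1, against 0 and 0.734 (-6.04 ± 0.85, adjusted p = 0.000705), a call lost without DMSO replicate 1. Clca3b at 25 h (-4.06 ± 0.76, adjusted p = 0.0103) and Nhp2 (-3.80 ± 0.55, adjusted p = 0.000705) ran the same way and were also lost without DMSO replicate 1.

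**Figure D5:**
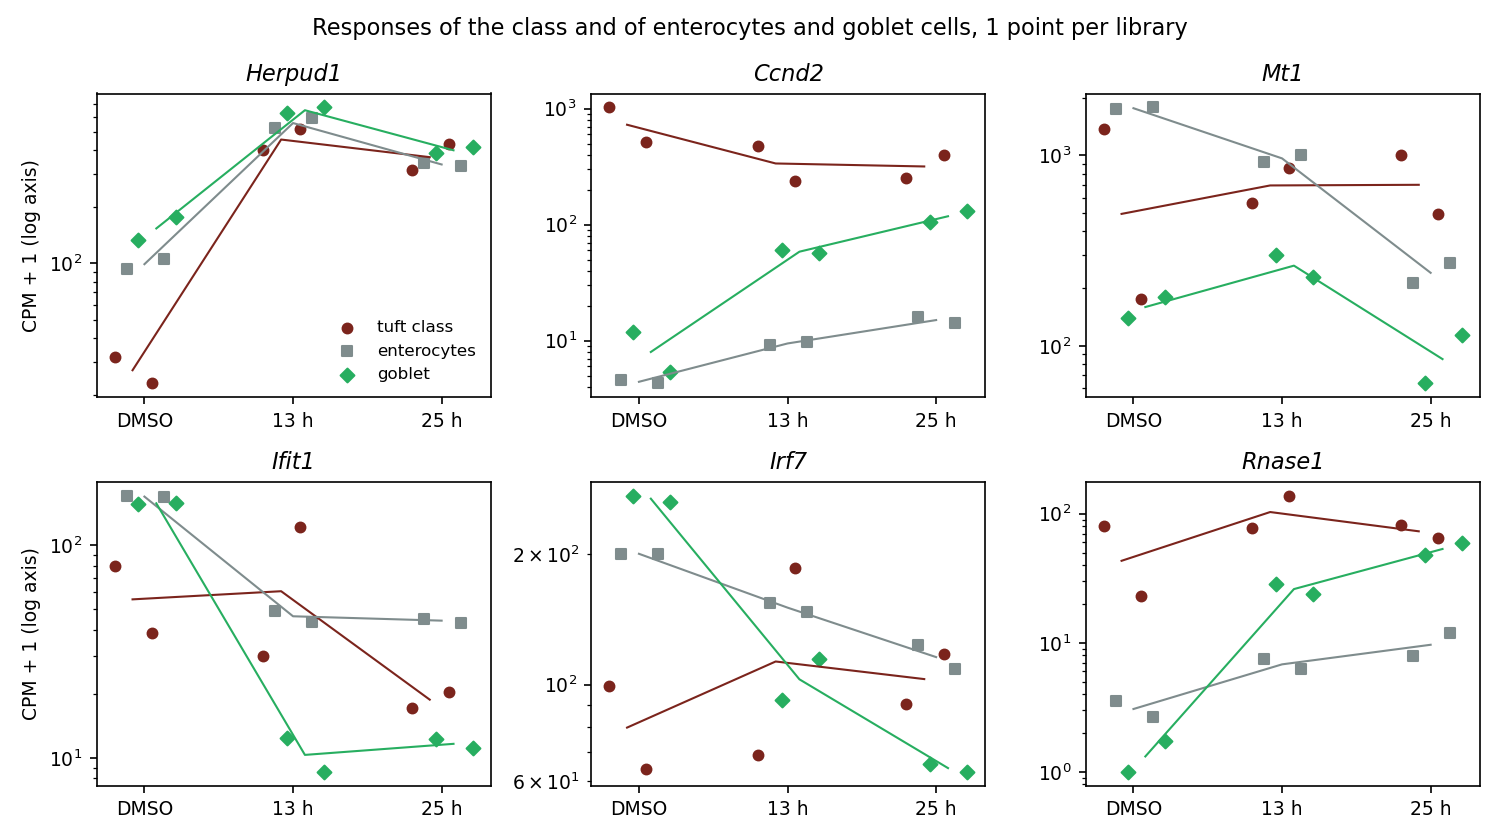
Levels of 6 genes by class of cell, the class named tuft, enterocytes and goblet cells, as CPM + 1 on a log axis for DMSO, 13 h and 25 h. Points are libraries and lines join the geometric means of the 2 libraries. Herpud1 is lowest in the class in DMSO, at 30.7 and 22.01 CPM, and overlaps the other classes at 25 h, and Ccnd2 is lower at 25 h than in DMSO in the class and higher at 25 h than in DMSO in both other classes.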

How the data were processed

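The authors deposited a matrix of raw UMI counts for 27998 genes in 5122 cells, whose names hold library, barcode and class. Cell Ranger and mm10 are named in the submitters' processing notes; not given in the sources used here are its version, the cell filter and the way classes were assigned. Libraries were 10x Genomics 3' V2, made after a dead-cell removal kit, per the labels' protocols. Gene symbols came from GENCODE vM21 (27645 of 27998 identifiers matched). Cells were kept at 1000 UMIs or more, 500 genes or more and a mitochondrial share of up to 25%, which removed 96. Class totals per library were 246597 to 813717 UMIs.

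UMI counts were summed over class cells per library, 2 per group, and all 6 libraries entered a fit in edgeR 4.0.16 (R 4.3.3; filterByExpr, TMM scaling, quasi-likelihood test, Benjamini-Hochberg adjustment over all genes, threshold 0.05). Whether responses differ between classes was tested by a class-by-group interaction, blocked on library. SE is that of the fit. In the fits of the class alone, p-values measure the spread between the libraries, called biological replicates in the series text. In the interaction fits 1 spread per gene is shared by both classes. The class sums there rest on 12 to 27 cells, against 426 to 1046 enterocytes or 75 to 109 goblet cells. A larger spread between class libraries has no term of its own, so those p-values do not measure it. The fits were run on simulated data with a smaller spread between libraries than the class had (biological coefficient of variation 0.228). They recovered 99% of genes changed by a log2 fold of 2 and 57% of those changed by 1. For the interaction with enterocytes this was 93% and 40%. Of 165 and 142 calls, 9 each were false. The setting was easier than the data, so it does not show the recovery reached here. Programmes, clusters and levels were computed in Python 3.11.15, and Scrublet was run in scanpy 1.11.5. Promoters came from RefSeq (GRCm38.p6).

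The members, lists, tests and naming rules were chosen with earlier results of these data known. The regeneration, cytoskeleton, cornified and epithelial lists were added after values were seen. Genes named are, for each comparison, the 10 highest and 10 lowest called ones, for each interaction 5 and 5, with a mean of at least 50 CPM, beside list members and the 5 markers. Levels are UMIs at 3' ends, in CPM, and are not divided by gene length. Alternatives were DESeq2 1.42.0, other scalings and filters, thinned cells, left-out libraries or cells, a replicate block and other programme thresholds.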

Additional observations from a re-analysis of the deposited data

Results flagged for a closer look

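The results that follow are genes whose response to Tm differed between the class and another class by edgeR's test of the interaction, adjusted over all genes. Values are the log2 response of the class minus that of the other class.

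Against enterocytes at 13 h, the difference was positive for Lrmp (6.62), Ltc4s (3.48), Anxa8 (2.12), Ifit1 (2.11) and Herpud1 (1.58). It was negative for Lce1h (-5.38), Sct (-3.49), the sulfate transporter gene Slc13a1 (-3.40), the sulfotransferase gene Sult1b1 (-3.33) and Vdr (-3.30), the vitamin D receptor. Against enterocytes at 25 h, it was positive for the metallothioneins Mt2 (4.62) and Mt1 (3.24) and for Herpud1 (1.95). It was negative for Lce1h (-10.2), Clca4a (-4.62), S100a7a (-4.40), Ccnd2 (-3.23) and Actn1 (-2.98). Lrmp had 13 UMIs in 5 of 4368 enterocytes, Ltc4s 49 in 46 and Lce1h 101 in 14, so that their values rest on few enterocyte UMIs.

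Against goblet cells at 13 h, the difference was positive for Ifit1 (4.39), Herpud1 (2.12), Irf7 (2.11) and Mgst3 (1.34), and negative for Mmp7 (-7.12), Nts (-4.94), Rnase1 (-4.40), Ccnd2 (-3.87) and Nhp2 (-3.53). Against goblet cells at 25 h, it was positive for the ubiquitin-like protein Isg15 (3.12), Atp2a3 (2.67), Irf7 (2.57), Herpud1 (2.47) and the AP-1 subunit Jun (1.74), and negative for Rnase1 (-6.04), Ccnd2 (-5.04), Acta1 (-4.96), Clca3b (-4.06) and Nhp2 (-3.80). Of these 27 genes, 9 (Atp2a3, Lrmp, Ltc4s, Mgst3, Nts, Sct, Slc13a1, Sult1b1 and Vdr) had most of their class UMIs outside the cells with neither programme. The numbers of tuft-programme and enteroendocrine-programme cells differ between libraries, and the part of those numbers was not tested. For Lce1h, Ccnd2 and Acta1, a few DMSO cells held most UMIs, as for some other of these genes among cells with neither programme. In DMSO replicates 1 and 2 the highest cell held 31 of 36 and 12 of 12 UMIs for Mmp7. For Ifit1 it held 40 of 56 and 10 of 11, and for Isg15 51 of 83 and 12 of 17. For Clca4a 2 cells held 20 each of 42, and 1 cell 41 of 41. In DMSO replicate 1 the highest cell held 227 of 330 for Clca3b, 359 of 640 for Mt1 and 133 of 194 for Mt2.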

How the results depend on the processing

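Beyond the values here, 692 of the gene values of the class kept direction and call over the alternatives, 40 lost the call and 28 gained it. Of the differences in response, 317 kept both and 47 lost the call. Programme counts of the class kept within 1.5 times except that 14 cells, not 22, held the enteroendocrine programme at a threshold of 4 genes. Those of the other classes moved more: at a threshold of 2 genes 37 enterocytes held the tuft and 69 the enteroendocrine programme, and 3 and 42 goblet cells, and without thinning 33 and 36 enterocytes, and 4 and 11 goblet cells. The cause of each change below was not tested. DESeq2 called 15 genes lower at 13 h and 1 lower between 25 h and 13 h. Without a filter on low counts, 115 rose and 135 fell at 13 h, 96 and 95 at 25 h, and 18 and 29 between 25 h and 13 h. With cells thinned to 5000 UMIs, 20 rose and 16 fell at 13 h, and 13 rose at 25 h. In the class sums, same-numbered libraries did not deviate together (r = 0.12, -0.14 and -0.32 for the 3 pairs of groups). These sums rest on 12 to 27 cells a library, so they cannot decide whether the numbers pair the libraries. With a replicate block 20 genes rose at 25 h.

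For differences in response from enterocytes, total-count scaling gave 45 lower at 13 h. No filter gave 33 higher and 82 lower at 13 h, and 16 and 55 at 25 h. Without enteroendocrine-programme cells there were 22 and 62 at 13 h, and 12 and 60 at 25 h, and with cells of neither programme alone (chosen after seeing the data) 5 higher at 25 h. From goblet cells, total-count scaling gave 39 lower at 13 h and 5 higher and 87 lower at 25 h. No filter gave 35 and 66 at 13 h, and 29 and 115 at 25 h, and without enteroendocrine-programme cells there were 20 higher at 13 h and 23 higher at 25 h.

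Leaving out a single library, where a lone library is assumed to vary like the other groups, gave 20 to 85 higher and 12 to 74 lower in the class at 13 h, 17 to 49 and 11 to 33 at 25 h, and 0 to 1 and 0 to 5 between 25 h and 13 h. From enterocytes it gave 8 to 57 and 40 to 127 at 13 h, and 9 to 24 and 33 to 66 at 25 h. From goblet cells it gave 3 to 41 and 7 to 77 at 13 h, and 3 to 39 and 6 to 108 at 25 h. Ltc4s at 13 h from enterocytes (-1.30) and Atp2a3 at 25 h from goblet cells (-3.00) turned sign in cells with neither programme, but these cells hold 8 and 4 UMIs of the genes over all libraries, so no direction is read from this. Reversed were Lce1h at 13 h from enterocytes without 13 h replicate 2 (range over left-out libraries -8.49 to 2.495), Nts at 13 h from goblet cells without 13 h replicate 1 (-6.76 to 0.29) and Isg15 at 25 h from goblet cells without 25 h replicate 2 (-0.10 to 4.50). The sums rest on 12 to 27 class cells a library, and a gene that was not called is not shown to be unchanged.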
